A study of Homo sapiens with 36 samples.

Results

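The levels of 10 genes that mark regulatory T cells or carry out their functions, and their response to GATA3 knockdown, were followed across 7 T cell lines. The genes were selected by symbol from the 60623 gene identifiers of the deposited table. They are the transcription factors FOXP3, IKZF2 (Helios) and IKZF4 (Eos), the receptors TNFRSF1B (TNFR2) and TNFRSF18 (GITR), the surface docking protein LRRC32 (GARP), the ectoenzyme ENTPD1 (CD39), the cytokine IL10, its receptor chain IL10RA and the cytokine chain EBI3. All 10 were present, 9 passed the filter on low counts, and LRRC32 did not.

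Regulatory T cells are CD4+ T cells that restrain other immune cells, and FOXP3 is the transcription factor that defines them. Helios and Eos act with FOXP3 in the nucleus, TNFR2 and GITR are signalling receptors of the TNF receptor family, GARP holds latent TGF-beta at the cell surface, and CD39 starts the breakdown of extracellular ATP towards adenosine. IL-10 and the EBI3-containing cytokines IL-27 and IL-35 are secreted mediators of suppression or regulation. None of these genes is exclusive to regulatory T cells, since activated T cells, B cells and myeloid cells also use several of them.

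The study sequenced polyadenylated RNA of 7 human T cell neoplasm lines in which GATA3, a T lineage zinc finger transcription factor, was targeted with a short hairpin RNA, beside control libraries of the same lines marked as carrying a scrambled hairpin. The labels describe 3 lines as cutaneous T lymphocytes, here called the cutaneous T cell lymphoma (CTCL) lines, namely H9 (2 control and 3 knockdown libraries), MyLa (MylaCD4+ in the labels, 3 and 3) and Mac1 (2 and 2). The other 4 are acute lymphoblastic leukemia (T-ALL) lines: THP6 (3 control, 2 knockdown), MOLT4 (2 and 2), and CCRF-CEM and SUP-T1 (3 and 3 each). All 36 libraries came from cells kept in RPMI with 10% fetal bovine serum, no arm was left untreated, and each line stands for itself alone within its class. The labels do not say whether replicates were separate cultures, so p-values rest on library-to-library spread alone, and that spread may be technical. The edgeR fit of all 36 libraries estimated it over the groups of all 7 lines together. A p-value within a line therefore also draws on the spread of the other lines.

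GATA3 itself was checked first, as counts-per-million (CPM) values on scaled library totals, and the unscaled totals ran from 18624330 to 50626644 counts. It fell in the knockdown libraries of 6 lines, by 0.72 in MyLa to 1.45 in MOLT4 on the log2 scale. In SUP-T1 it went against the labels: the control libraries had 24.4, 23.6 and 24.2 CPM and those labelled knockdown had 81.3, 77.2 and 86.6 CPM (log2 fold change 1.76, SE 0.0856, edgeR adjusted p = 6.24e-15), so every SUP-T1 direction below is that of the libraries labelled knockdown. The THP6 knockdown libraries stood apart from each other, with a root mean square log2 distance of 0.607 from their mean against at most 0.305 elsewhere. Members called in THP6 are given with and without the second of these libraries. Of 10 T cell markers, 8 to 10 reached 1 CPM in the controls of 5 lines, 5 did in MyLa and 4 in Mac1, where CD3D, CD3E, CD3G, CD7 and LCK had 0 counts.

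In the 7 comparisons of knockdown with control within a line, 12 of 70 combinations of a member and a line passed the threshold (edgeR quasi-likelihood test, Benjamini-Hochberg adjusted p under 0.05 over all 21138 genes tested), 5 higher and 7 lower. They fell on 5 members: TNFRSF1B, IL10RA, IKZF2, EBI3 and IL10. FOXP3, IKZF4, TNFRSF18 and ENTPD1 were tested in every line and passed in none. In 21 of the 70 combinations both arms had at most 3 counts in all, so that no response could have been measured there. These are bulk libraries, in which fewer cells with a transcript and less transcript per cell cannot be told apart.

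Counted by line, 3 members passed in H9, where TNFRSF1B was higher and IL10RA and EBI3 were lower, beside 1.82% of all genes tested. In MyLa TNFRSF1B was higher and IL10RA lower (2 members, 1.88% of all genes). SUP-T1 had IL10RA higher and TNFRSF1B and IL10 lower (3 members, 16.7% of all genes). CCRF-CEM had IKZF2 lower (1 member, 8.44% of all genes), MOLT4 had IKZF2 higher and TNFRSF1B lower (2 members, 19.2%), and THP6 had TNFRSF1B higher (1 member, 7.40%). In Mac1 no member passed in edgeR although 7.89% of all genes did. A single Mac1 member, EBI3, had an unadjusted p under 0.05, and it passed as higher in limma-voom (adjusted p = 0.0310) and in DESeq2 (adjusted p = 0.0372). With 9 members, a share per line moves in steps of a single gene, and the shares in SUP-T1, CCRF-CEM, MOLT4 and THP6 are not read as a result about the members. Arms whose libraries did not overlap, given below for single members, were also found for 61.0% of all genes in MOLT4, 50.9% in Mac1, 34.5% and 28.6% in SUP-T1 and CCRF-CEM, 27.8% in H9, 24.0% in MyLa and 17.7% in THP6.

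**Figure D1:**
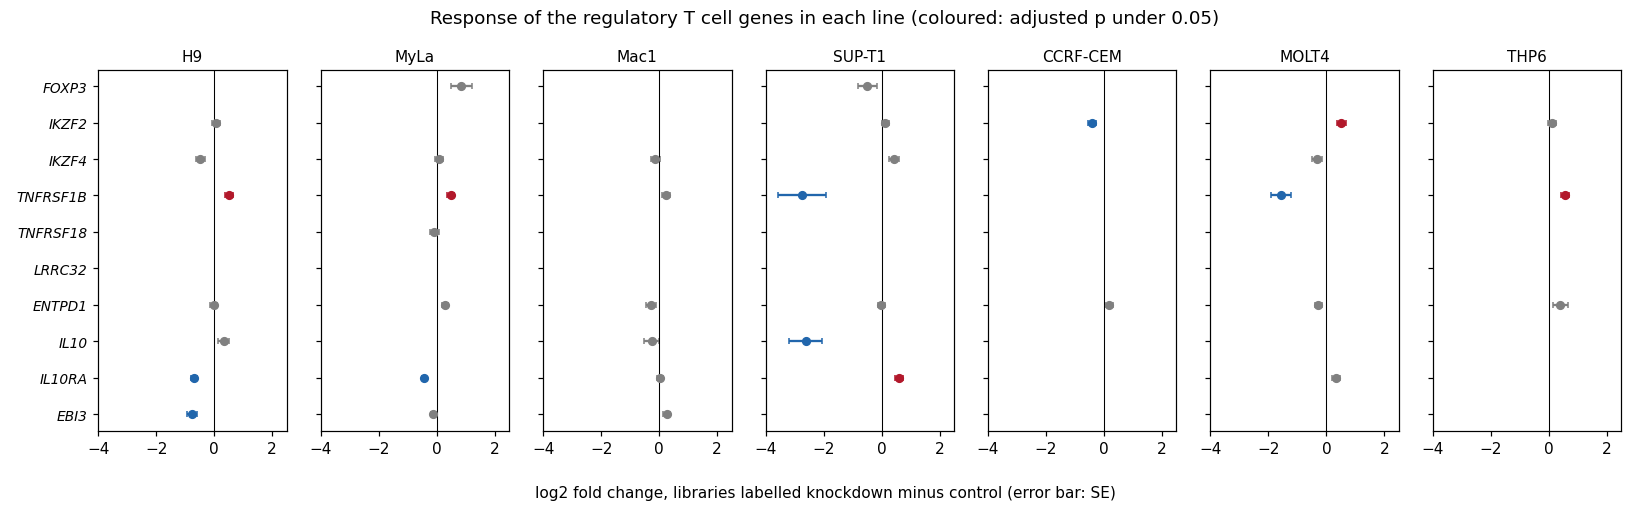
Log2 fold change with its SE for each member (rows) in each line (panels), libraries labelled knockdown minus control, shown where either arm reached 1 CPM or the change passed edgeR's threshold; red is higher, blue lower and grey not passed. TNFRSF1B lies to the right of 0 in H9, MyLa and THP6 and to the left in SUP-T1 and MOLT4, while IL10RA lies to the left in H9 and MyLa and to the right in SUP-T1.

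The members called higher in at least 1 line and lower in another were IKZF2, TNFRSF1B and IL10RA. The only call of IL10RA as higher was in SUP-T1, where GATA3 too was higher in the libraries labelled knockdown. In Mac1 and MOLT4, where GATA3 fell, IL10RA did not pass (log2 fold changes 0.03 and 0.33). A link between the levels of GATA3 and IL10RA was not tested. Promoter windows of IKZF2, TNFRSF1B and IL10RA are printed because their direction by the labels differed between lines. They span 250 bases before and 50 after the RefSeq start site on GRCh38.p14, read 5′ to 3′ on the gene's strand. Capitals mark the GATA words searched for, AGATAA and its form with a final G (AGATAG), and TGATAA with its own such form (TGATAG), on both strands. RefSeq's table has a single window for TNFRSF1B and for IL10RA, the latter with a start inside the gene's GENCODE span. Of the 2 for IKZF2 the one with the start nearest the GENCODE gene start is shown. The IKZF2 window is chr2:213152407-213152706 on the minus strand, the TNFRSF1B window chr1:12166741-12167040 on the plus strand and the IL10RA window chr11:117989695-117989994 on the plus strand.
IKZF2: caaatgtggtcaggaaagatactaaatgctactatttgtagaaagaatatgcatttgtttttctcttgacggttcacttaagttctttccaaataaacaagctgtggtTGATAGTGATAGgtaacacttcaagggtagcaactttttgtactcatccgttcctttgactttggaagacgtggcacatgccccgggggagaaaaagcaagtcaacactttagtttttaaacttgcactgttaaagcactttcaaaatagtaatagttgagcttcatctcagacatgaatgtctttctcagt
TNFRSF1B: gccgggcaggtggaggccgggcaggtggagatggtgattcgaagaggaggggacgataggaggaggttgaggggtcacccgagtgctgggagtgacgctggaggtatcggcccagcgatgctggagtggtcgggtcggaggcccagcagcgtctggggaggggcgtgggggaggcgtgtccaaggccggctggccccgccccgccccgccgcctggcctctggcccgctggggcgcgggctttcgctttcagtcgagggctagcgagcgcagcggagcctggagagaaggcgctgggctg
IL10RA: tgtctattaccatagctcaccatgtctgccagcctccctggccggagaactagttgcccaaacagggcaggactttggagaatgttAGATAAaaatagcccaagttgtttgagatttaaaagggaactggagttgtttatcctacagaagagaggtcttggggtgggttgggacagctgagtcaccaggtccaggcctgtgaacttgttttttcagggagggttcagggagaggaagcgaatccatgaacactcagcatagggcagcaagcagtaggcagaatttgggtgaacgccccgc
The IKZF2 window shown holds TGATAG at 142 and again at 136 bases before the start and the other one TGATAA from 15 bases after its own start, on the other strand. The IL10RA window holds AGATAA at 164 bases before it, and the TNFRSF1B window holds none of the words. RefSeq's table has 18 windows for 9 members (not LRRC32), and 6 windows of 4 members (FOXP3, IKZF2, ENTPD1 and IL10RA) hold a word, against 25% of 35116 windows and 29.1% of 27305 genes in the whole table. A match describes letters in a window and is not a binding site, and the absence of a match is limited to these words and this window.

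FOXP3 (ENSG00000049768, chrX:49250436-49264826, minus strand) was at or under about 1 CPM everywhere. Its control means ran from 0.0450 CPM in CCRF-CEM through 0.349 in H9, 0.361 in Mac1, 0.502 in THP6, 0.545 in MOLT4 and 0.629 in MyLa to 1.05 ± 0.0579 CPM in SUP-T1 (SD, n = 3). Along that order only the step from H9 down to CCRF-CEM passed (log2 difference 2.64, SE 0.684, edgeR adjusted p = 0.00130), and the step from SUP-T1 to MyLa did not (adjusted p = 0.0640). In MyLa the control libraries had 19, 22 and 10 counts and the knockdown libraries 21, 31 and 30, and after scaling the arms did not overlap, at 0.393 to 0.809 CPM and 0.890 to 1.34 CPM. That difference did not pass (log2 fold change 0.85, SE 0.352, edgeR adjusted p = 0.326). The exons of FOXP3 share 91 bases with CCDC22 on the other strand, which stood at 27.5 to 46.4 CPM in controls, and no source used here gives the strand setting, so the part of CCDC22 reads in these low FOXP3 counts was not tested.

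IKZF2 (ENSG00000030419, chr2:212999691-213152427, minus strand), which encodes Helios, was either among the higher members of a line or near absent. Control means were 141 ± 14.3 CPM in SUP-T1 (SD, n = 3), 118 ± 2.62 in H9 (n = 2), 107 ± 5.59 in THP6 (n = 3), 57.0 ± 5.38 in CCRF-CEM (n = 3) and 55.1 ± 2.40 in MOLT4 (n = 2). MyLa had 1 count over its 3 controls and Mac1 had 0 over both arms, which allows up to 0.0513 CPM in its controls, so the CTCL class held both a high line and the lines near 0. The steps from SUP-T1 to H9 (edgeR adjusted p = 0.0987), H9 to THP6 (adjusted p = 0.440) and CCRF-CEM to MOLT4 (adjusted p = 0.805) did not pass. Control libraries did not overlap between SUP-T1 and H9 or between H9 and THP6. The share of all genes whose controls do not overlap between lines is not given, so this is not read as a difference.

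Knockdown responses of IKZF2 had opposite signs in a pair of T-ALL lines. In CCRF-CEM the controls had 60.0, 50.8 and 60.3 CPM and the knockdown libraries 43.5, 43.4 and 42.2 CPM, with all knockdown libraries below all controls (log2 fold change -0.41, SE 0.127, edgeR adjusted p = 0.0430). In MOLT4 the controls had 56.8 and 53.4 CPM and the knockdown libraries 71.7 and 85.7 CPM, all above the controls (log2 fold change 0.51, SE 0.153, edgeR adjusted p = 0.0176). The CCRF-CEM call was lost when any 1 of its 6 libraries was left out (adjusted p 0.0518 to 0.156) and in limma-voom (adjusted p = 0.0652), and the MOLT4 call was lost without control 1 (adjusted p = 0.0633), control 2 (0.121) or knockdown 2 (0.190). Means in H9 (122 CPM in knockdown), SUP-T1 (154 CPM in the libraries labelled knockdown) and THP6 (117 CPM) lay within overlapping ranges of their controls. In THP6 the knockdown libraries had 95.6 and 138 CPM, and the edgeR difference changed sign with the library left out: without the first it passed as higher (log2 fold change 0.36, adjusted p = 0.0383), and without the second it was -0.17 (adjusted p = 0.802). In MyLa the knockdown libraries held 2, 6 and 4 counts against 1, 0 and 0 in controls, a control-to-knockdown ratio of 0.0744 with an exact 95% counting interval of 0.00174 to 0.503, and edgeR's adjusted p was 0.150. It passed as higher in limma-voom (adjusted p = 0.0457) and in edgeR with no filter (0.0353), and not in DESeq2 (0.0791).

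IKZF4 (ENSG00000123411, chr12:56007659-56038435, plus strand), which encodes Eos, was ordered differently from its paralogue. Control means were 36.1 ± 2.03 CPM in Mac1 (SD, n = 2), 16.2 ± 1.12 in MyLa (n = 3), 14.1 ± 2.3 in H9 (n = 2), 5.95 ± 0.0882 in MOLT4 (n = 2) and 1.97 ± 0.18 in SUP-T1 (n = 3), with 0.313 CPM in CCRF-CEM and 0.0670 CPM in THP6. All steps in that order passed in edgeR apart from MyLa to H9 (adjusted p = 0.254), and the 3 CTCL lines lay above the 4 T-ALL lines. No response passed. In H9 the knockdown libraries had 10.2, 9.48 and 10.6 CPM and the controls 15.7 and 12.5 CPM, which did not overlap (log2 fold change -0.48, SE 0.154, edgeR adjusted p = 0.122), and DESeq2 called this difference lower (adjusted p = 0.00832). In SUP-T1 the libraries labelled knockdown had 2.56, 2.28 and 3.12 CPM against 2.05, 1.77 and 2.10 CPM (log2 fold change 0.43, SE 0.176, edgeR adjusted p = 0.0988).

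**Figure D2:**
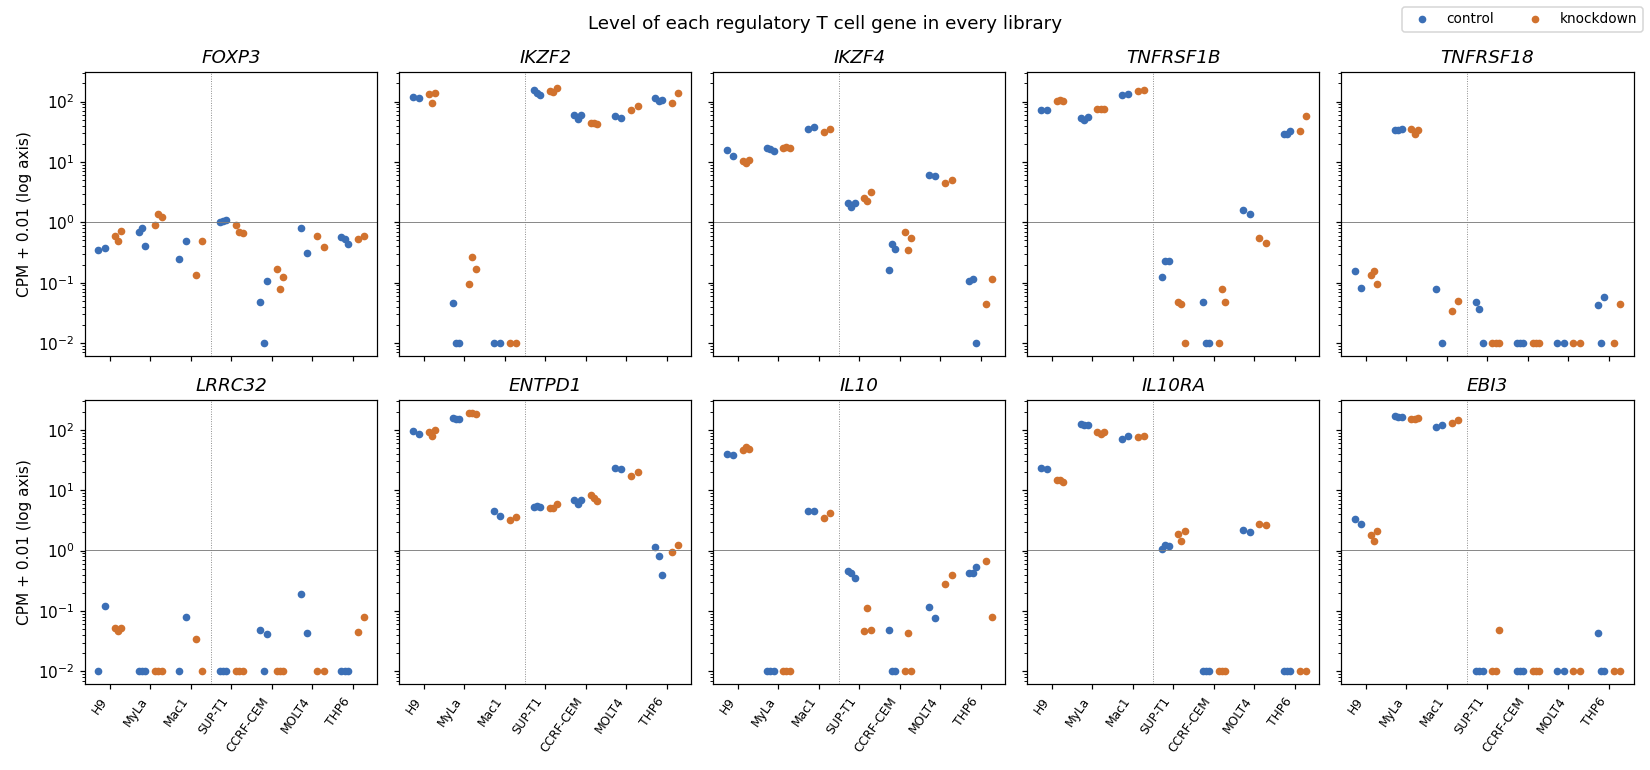
CPM plus 0.01 on a log axis for each of the 10 members (panels) in every library, by line, with controls in blue and libraries labelled knockdown in orange; the dotted line separates the 3 CTCL lines on the left from the 4 T-ALL lines, and the horizontal line marks 1 CPM. Most members are high in some lines and at or near 0 in others, and the arms of a line differ far less than the lines do.

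TNFRSF1B (ENSG00000028137, chr1:12167003-12209228, plus strand) encodes TNFR2, the TNF receptor that regulatory T cells carry at high density. Control means were 131 ± 5.26 CPM in Mac1 (SD, n = 2), 72.5 ± 0.696 in H9 (n = 2), 53.1 ± 2.71 in MyLa (n = 3), 30.2 ± 1.55 in THP6 (n = 3) and 1.49 ± 0.187 in MOLT4 (n = 2), with 18 counts over the SUP-T1 controls and 1 count over those of CCRF-CEM. Each of the 6 steps in that order passed in edgeR, from an adjusted p of 0.00376 between H9 and MyLa downwards. TNFRSF1B was the member called in the most lines, 3 times higher and 2 times lower.

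In H9 the controls had 73.0 and 72.0 CPM and the knockdown libraries 102, 105 and 101 CPM (log2 fold change 0.50, SE 0.134, edgeR adjusted p = 0.0457). In MyLa the controls had 53.0, 50.5 and 55.9 CPM and the knockdown libraries 74.4, 74.1 and 74.8 CPM (log2 fold change 0.49, SE 0.119, edgeR adjusted p = 0.0263). Arms did not overlap in either line, and the fold changes kept their size under every alternative (0.46 to 0.51 in H9, 0.44 to 0.52 in MyLa). Leaving out any 1 library of the line ended the call, with adjusted p from 0.0828 to 0.382 in H9 and from 0.0570 to 0.162 in MyLa. The H9 call was also lost with DESeq2's size factors (0.0629) and with a filter of 10 counts in 2 libraries (0.0577), while limma-voom and DESeq2 itself called both lines. In Mac1 the knockdown libraries, at 151 and 156 CPM, were also above both controls, at 128 and 135 CPM, and the difference did not pass (log2 fold change 0.23, SE 0.143, edgeR adjusted p = 0.388).

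The T-ALL lines did not share a direction for TNFRSF1B. In THP6 the controls had 29.1, 29.5 and 32.0 CPM and the knockdown libraries 32.1 and 57.5 CPM (log2 fold change 0.57, SE 0.135, edgeR adjusted p = 0.00909). That call rests on the second knockdown library, and without it the log2 fold change was 0.09 (adjusted p = 0.863). In MOLT4 the controls had 1.62 and 1.36 CPM and the knockdown libraries 0.547 and 0.452 CPM, 45 and 41 counts against 16 and 13 (log2 fold change -1.56, SE 0.335, edgeR adjusted p = 0.00105), and this fall passed under all 11 alternatives. In SUP-T1 the controls held 3, 8 and 7 counts and the libraries labelled knockdown 1, 1 and 0, a control-to-knockdown ratio of 7.74 with an exact 95% counting interval of 1.85 to 68.8 (edgeR adjusted p = 0.0200). The SUP-T1 call was lost without control 2 (adjusted p = 0.0754), control 3 (0.0605) or the third library labelled knockdown (0.0993), and in CCRF-CEM 1 and 3 counts per arm allowed no comparison. MIR7846 and MIR4632, which lie on the strand of TNFRSF1B, had 0 counts in every group.

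TNFRSF18 (ENSG00000186891, chr1:1203508-1206691, minus strand), which encodes GITR, reached 1 CPM in MyLa only. MyLa controls had 33.3, 33.5 and 35.8 CPM and MyLa knockdown libraries 34.5, 28.5 and 33.8 CPM, overlapping ranges with no call (log2 fold change -0.08, SE 0.151, edgeR adjusted p = 0.944). The next line, H9, had 0.111 CPM in controls (log2 difference from MyLa 8.22, SE 0.320, edgeR adjusted p = 1.05e-15), and CCRF-CEM and MOLT4 had 0 counts in both arms. LRRC32 (ENSG00000137507, chr11:76657524-76670747, minus strand), which encodes GARP, had at most 6 counts in any group and was not tested. Those 6 counts were in the MOLT4 controls, as 5 and 1, and both MOLT4 knockdown libraries had 0.

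ENTPD1 (ENSG00000138185, chr10:95711779-95869695, plus strand), which encodes CD39, was the one member at 1 CPM or more in at least 1 arm of all 7 lines. Control means were 153 ± 3.35 CPM in MyLa (SD, n = 3), 90.8 ± 6.81 in H9 (n = 2), 22.6 ± 0.695 in MOLT4 (n = 2), 6.52 ± 0.513 in CCRF-CEM (n = 3), 5.37 ± 0.175 in SUP-T1 (n = 3), 4.08 ± 0.507 in Mac1 (n = 2) and 0.773 ± 0.376 in THP6 (n = 3). The step from CCRF-CEM to SUP-T1 did not pass (edgeR adjusted p = 0.0525). Their control libraries did not overlap, and the share of all genes for which that holds between lines is not given. In MyLa the controls had 156, 154 and 149 CPM and the knockdown libraries 188, 190 and 185 CPM, all above the controls. This difference did not pass in edgeR (log2 fold change 0.29, SE 0.0985, adjusted p = 0.158), and it passed in limma-voom (adjusted p = 0.0133), in DESeq2 (adjusted p = 0.00720) and in a fit of MyLa alone (adjusted p = 0.00114). In MOLT4 the controls had 23.1 and 22.1 CPM and the knockdown libraries 16.9 and 20.2 CPM (log2 fold change -0.28, SE 0.130, edgeR adjusted p = 0.135), and DESeq2 (adjusted p = 0.0412) and a fit of MOLT4 alone (0.0476) called this lower. ENTPD1-AS1 shares 454 exon bases with ENTPD1 on the other strand and stood at 1.25 to 33.4 CPM in controls, above ENTPD1 in Mac1, SUP-T1, CCRF-CEM, MOLT4 and THP6, and how far its reads enter these counts was not tested.

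IL10 (ENSG00000136634, chr1:206767602-206772494, minus strand), the gene of the anti-inflammatory cytokine interleukin 10, was high in a single line. H9 controls had 39.3 and 39.0 CPM, Mac1 controls 4.54 and 4.52 CPM, the THP6 and SUP-T1 means were 0.456 ± 0.0654 and 0.402 ± 0.0548 CPM (SD, n = 3 each, adjusted p = 0.762 for their difference in edgeR), and MyLa had 0 counts in all 6 libraries, which allows up to 0.0373 CPM in its controls. In H9 the knockdown libraries had 46.6, 52.2 and 49.0 CPM, all above the controls, and the difference did not pass (log2 fold change 0.33, SE 0.195, edgeR adjusted p = 0.616). In SUP-T1 the controls held 12, 15 and 11 counts and the libraries labelled knockdown 1, 3 and 1 (log2 fold change -2.62, SE 0.582, edgeR adjusted p = 0.00203). This fall passed under the 12 alternatives that tested it, and a fit of SUP-T1 alone did not test it. Counts in MOLT4 went from 3 and 2 in controls to 8 and 11 in the knockdown libraries (log2 fold change 1.87, SE 0.686, edgeR adjusted p = 0.0581), which passed as higher in limma-voom (adjusted p = 0.0390), in DESeq2 (0.0453) and with no filter (0.0324). The THP6 knockdown libraries had 19 and 2 counts beside 13, 12 and 11 in controls, so they lay on either side of them, and in edgeR the difference passed as lower without the first (log2 fold change -2.61, adjusted p = 0.00305) and was 0.55 without the second (adjusted p = 0.735).

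IL10RA (ENSG00000110324, chr11:117986348-118003037, plus strand) encodes the chain of the IL-10 receptor that binds the cytokine, and it was higher in each CTCL line than in any T-ALL line. Control means were 122 ± 4.32 CPM in MyLa (SD, n = 3), 75.6 ± 5.66 in Mac1 (n = 2) and 23.2 ± 0.734 in H9 (n = 2), against 2.12 ± 0.103 in MOLT4 (n = 2) and 1.17 ± 0.0973 in SUP-T1 (n = 3). CCRF-CEM and THP6 had 0 counts in every library, which allows up to 0.0397 and 0.0373 CPM in their controls. All 5 steps down to that floor passed in edgeR, from an adjusted p of 2.53e-05 between MOLT4 and SUP-T1 downwards.

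In H9 the IL10RA level was 23.7 and 22.7 CPM in controls and 14.6, 14.5 and 13.8 CPM in the knockdown libraries (log2 fold change -0.70, SE 0.0890, edgeR adjusted p = 6.49e-05). In MyLa it was 127, 119 and 120 CPM in controls and 90.9, 86.7 and 92.3 CPM in the knockdown libraries (log2 fold change -0.44, SE 0.0745, edgeR adjusted p = 0.00144). No knockdown library overlapped a control in these 2 lines, and both falls passed under every alternative run, 12 in H9 and 13 in MyLa. Mac1, the third CTCL line, had 71.6 and 79.6 CPM in controls and 75.3 and 79.6 CPM in the knockdown libraries (log2 fold change 0.03, SE 0.0913, edgeR adjusted p = 0.951). In SUP-T1, where GATA3 was higher in the libraries labelled knockdown, IL10RA rose from 1.06, 1.25 and 1.19 CPM to 1.86, 1.45 and 2.12 CPM (log2 fold change 0.61, SE 0.135, edgeR adjusted p = 0.00738). Without the third library labelled knockdown this call was lost (log2 fold change 0.49, adjusted p = 0.10). MOLT4 had 2.20 and 2.05 CPM in controls and 2.74 and 2.61 CPM in the knockdown libraries (log2 fold change 0.33, SE 0.141, edgeR adjusted p = 0.176).

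**Figure D3:**
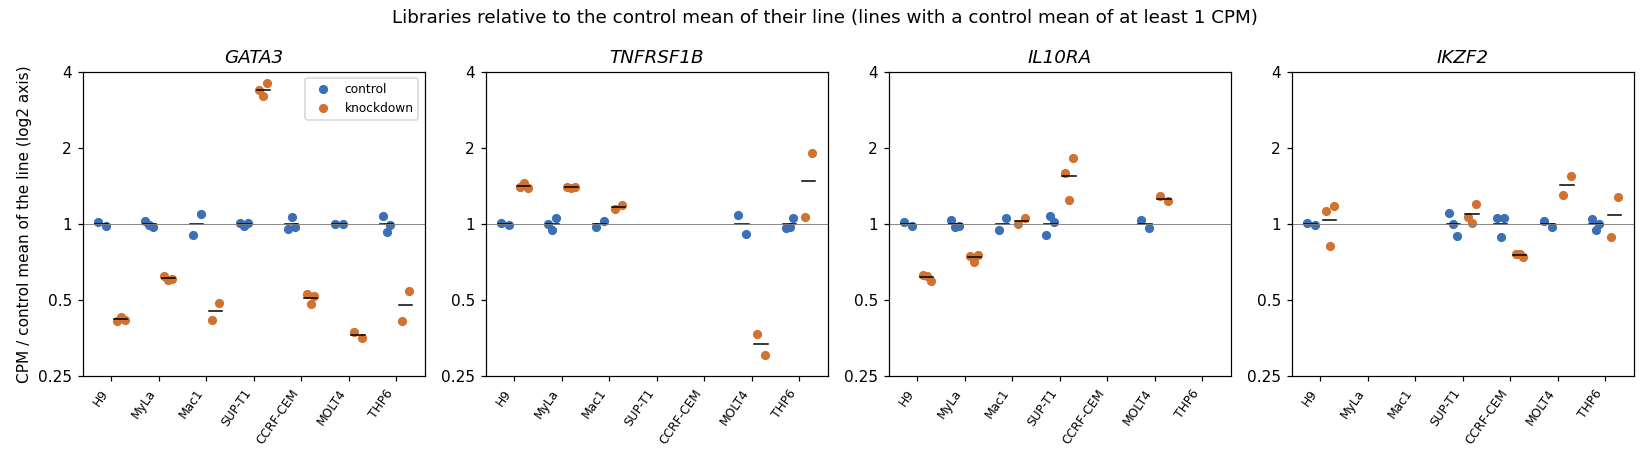
CPM of each library divided by the control mean of its line, on a log2 axis, for GATA3 and the 3 members called in both directions, in lines whose control mean reached 1 CPM; points are libraries (controls blue, libraries labelled knockdown orange) and bars are arm means. GATA3 is below 1 in 6 lines and above it in SUP-T1, TNFRSF1B is above 1 in H9, MyLa, Mac1 and THP6 and below it in MOLT4, and IL10RA is below 1 in H9 and MyLa alone.

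EBI3 (ENSG00000105246, chr19:4229498-4237531, plus strand), the chain shared by IL-27 and IL-35, reached 1 CPM in the CTCL lines only. Control means were 166 ± 5.39 CPM in MyLa (SD, n = 3), 116 ± 4.92 in Mac1 (n = 2) and 3.04 ± 0.421 in H9 (n = 2), and the 11 T-ALL control libraries held 1 count in all, in THP6. In H9 the controls had 3.33 and 2.74 CPM, 90 and 75 counts, and the knockdown libraries 1.78, 1.43 and 2.13 CPM, 43, 39 and 51 counts (log2 fold change -0.78, SE 0.171, edgeR adjusted p = 0.0164). Every H9 knockdown library was below both controls, and the call was lost without control 1 (adjusted p = 0.350), knockdown 1 (0.0529) or knockdown 2 (0.0814) and in a fit of H9 alone (0.171). In Mac1 the controls had 113 and 120 CPM and the knockdown libraries 132 and 147 CPM (log2 fold change 0.26, SE 0.113, edgeR adjusted p = 0.187). MyLa had 172, 161 and 164 CPM in controls and 149, 151 and 157 CPM in the knockdown libraries, which did not overlap and did not pass (log2 fold change -0.12, SE 0.0922, edgeR adjusted p = 0.718).

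Per kilobase of merged exon, which allows levels of different genes to be set side by side, EBI3 in MyLa was the highest control mean of any member, at 129 CPM per kilobase, with 90.4 in Mac1. The highest control means of the next members were those of TNFRSF1B in Mac1 (34.9), TNFRSF18 in MyLa (25.0), ENTPD1 in MyLa (22.0), IL10 in H9 (18.2) and IL10RA in MyLa (15.1). IKZF2 reached 11.5 CPM per kilobase in SUP-T1 controls and IKZF4 5.30 in Mac1 controls, while the control mean of FOXP3 did not exceed 0.396. MyLa thus combined high EBI3, TNFRSF18, ENTPD1, IL10RA and TNFRSF1B (14.1 CPM per kilobase) with IKZF2 near 0. H9 combined high IKZF2, ENTPD1, TNFRSF1B and IL10, so that ENTPD1 and TNFRSF1B were high in both lines. Over all members and neighbouring lines, 31 of 54 steps in control level passed in edgeR. Over all genes and all 21 pairs of lines, 63.0% of tests passed (55.1% to 68.5% in a single pair). The 54 steps join lines next to each other in a member's own order, so these shares are unlike and are not compared.

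Whether the lines responded differently was tested directly, by an F test over the 7 responses of each gene in the same edgeR model. Lines with at most 3 counts of a member in each arm entered this test and could show no response. Of the 9 members tested 7 passed, beside 35.2% of all genes: IL10RA (F = 16.5, adjusted p = 1.14e-05), TNFRSF1B (F = 8.97, adjusted p = 0.000194), IL10 (F = 5.37), IKZF2 (F = 5.30), EBI3 (F = 5.01), IKZF4 (F = 4.09) and ENTPD1 (F = 3.34, adjusted p = 0.0397). FOXP3 (adjusted p = 0.192) and TNFRSF18 (adjusted p = 0.928) did not. Without SUP-T1 the members called were 4 beside 4610 genes in place of 7448: IL10RA, TNFRSF1B, IKZF2 and EBI3 still passed, and IKZF4 (adjusted p = 0.0882), ENTPD1 (0.0640) and IL10 (0.282) did not. A fit without SUP-T1 and the second THP6 knockdown library was chosen after seeing the data. It leaves a lone THP6 knockdown library, and its calls are not read as a result about the members.

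With the lines as replicates, counts summed per line and arm gave no common response. No member passed for the mean over the 7 lines in edgeR, none had an unadjusted p under 0.05, and DESeq2 and limma-voom also called none, beside 0.00435% of all 22965 genes tested. The means ran from -0.17 for TNFRSF18 (SE 0.299) to 0.17 for FOXP3 (SE 0.240) on the log2 scale. GATA3 itself, with SUP-T1 included, did not pass there (log2 mean -0.76, SE 0.307, edgeR adjusted p = 1.00). For the difference between CTCL and T-ALL responses no member passed either, in edgeR, DESeq2 or limma-voom, beside 0.00435% of all genes. IL10RA alone had an unadjusted p under 0.05 (log2 difference -0.84, SE 0.273, unadjusted p = 0.0130, edgeR adjusted p = 1.00).

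Control levels of the 3 CTCL and 4 T-ALL lines were compared with each line as 1 replicate. EBI3 passed as higher in CTCL (edgeR adjusted p = 0.0407) and was the 1 member of 8 tested to do so, beside 0.280% of 18565 genes. With 1 count in the T-ALL controls its fitted fold change is no estimate and is not given. The call was lost in limma-voom (adjusted p = 0.233) and without any 1 of the other 6 lines (0.0959 to 0.183), and it held without H9. The 5 members with an unadjusted p under 0.05 were EBI3, IL10RA, IL10, IKZF4 and ENTPD1. The share of all genes under that unadjusted threshold is not given, so this count is not read as a result about the members. For 4 of the 8 members tested, EBI3, IL10RA, IKZF4 and TNFRSF1B, all 3 CTCL control means lay above all 4 T-ALL means. This was so for 6.78% of all genes. TNFRSF18, not tested there, had the same order, with control means of at most 0.111 CPM outside MyLa. None of the 8 had all CTCL means below, which was so for 7.57% of all genes.

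A further 78 genes of the same pathways were counted beside the members, in lists written with earlier results of these data known, and all 78 were tested. In H9 4 were higher and 7 lower, in MyLa 4 and 2, in Mac1 17 and 0, in SUP-T1 14 and 18, in CCRF-CEM 12 and 9, in MOLT4 19 and 16, and in THP6 9 and 3. Of all genes 0.852% were higher and 0.965% lower in H9, 1.02% and 0.861% in MyLa, and 5.54% and 2.35% in Mac1. The T-ALL lines had 5.56% and 1.84% in THP6, 8.88% and 10.3% in MOLT4, 8.14% and 8.57% in SUP-T1, and 3.00% and 5.43% in CCRF-CEM, and the counts of each list below stand beside these shares. Without the second THP6 knockdown library 1 of the 78, ADORA2A, was higher and 0 were lower, where 74 of all genes passed. Their median log2 fold change lay between -0.08 in H9 and 0.14 in Mac1, where that of all genes was 0 in every line.

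**Figure D4:**
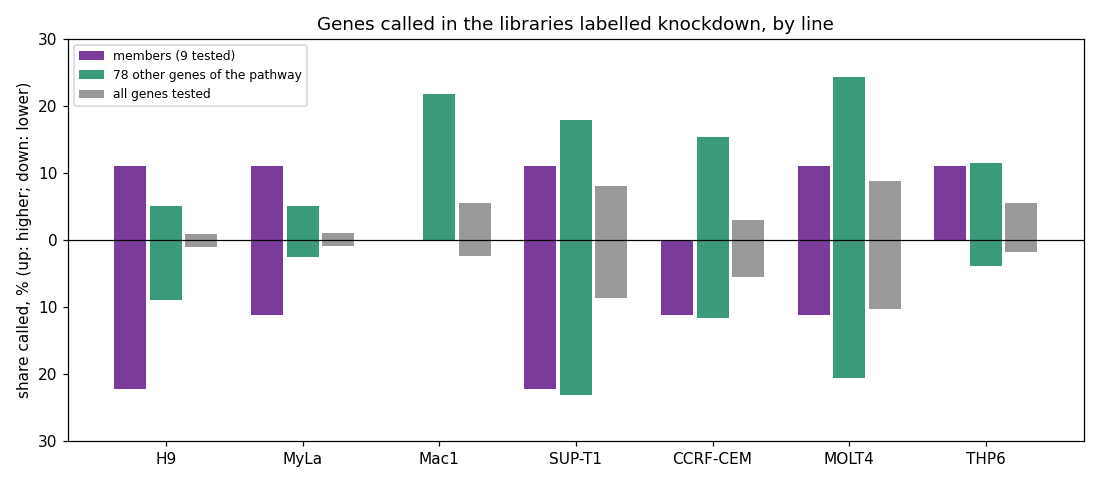
Share of genes called higher (upward) and lower (downward) in the libraries labelled knockdown of each line, for the 9 members tested, the 78 other genes of their pathways and all 21138 genes tested. A single member makes up 1 of 9 in the members' bars, and in Mac1 the bar of other pathway genes stands upward only, with 17 higher and 0 lower.

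Among 24 regulators of FOXP3, BACH2, a repressor that helps to maintain regulatory T cells, fell in MyLa from 19.7 ± 0.835 to 9.57 ± 0.856 CPM (mean ± SD of 3 libraries each; log2 fold change -1.04, SE 0.153, edgeR adjusted p = 0.000110). PRDM1 (Blimp-1), which BACH2 is known to repress, rose in the same libraries from 12.2 ± 0.878 to 22.3 ± 2.25 CPM (log2 fold change 0.87, edgeR adjusted p = 3.62e-06). ID2, an inhibitor of E proteins, was called higher in H9, Mac1, CCRF-CEM and MOLT4, from 0.80 on the log2 scale in Mac1 (adjusted p = 0.000111) to 2.06 in MOLT4 (adjusted p = 5.83e-09, edgeR). Its control means were 0.696 CPM in CCRF-CEM, 0.807 in MOLT4, 1.89 in H9 and 18.2 in Mac1. STAT5A, a driver of FOXP3 transcription downstream of IL-2, fell in MyLa by 0.27, in CCRF-CEM by 0.75 and in MOLT4 by 1.16 on the log2 scale, and rose in SUP-T1 by 0.99 (edgeR adjusted p = 0.0263, 4.23e-09, 1.22e-11 and 3.57e-10). Of the 24, 2 were higher and 0 lower in H9, 1 and 2 in MyLa, 3 and 0 in Mac1, 6 and 4 in SUP-T1, 5 and 4 in CCRF-CEM, 6 and 9 in MOLT4 and 4 and 1 in THP6 (0 and 0 without its second knockdown library).

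Of 22 surface and signature genes of regulatory T cells, 5 fell and none rose in H9. They included the chemokine receptor CCR4, from 74.3 ± 1.16 to 39.8 ± 2.08 CPM (mean ± SD of 2 and of 3 libraries; log2 fold change -0.90, edgeR adjusted p = 6.74e-05), TNFRSF9 (4-1BB, log2 fold change -0.98, adjusted p = 3.12e-05), FCRL3 (-1.30, adjusted p = 0.00367) and IL1RL1 (-3.36, adjusted p = 0.00137). CCR4 also fell in CCRF-CEM, from 70.8 ± 4.56 to 15.8 ± 2.91 CPM (n = 3 each; log2 fold change -2.17, edgeR adjusted p = 7.28e-13). In Mac1 4 of the 22 rose and none fell, among them TNFRSF9 (log2 fold change 1.75) and CTLA4 (2.40, from 0.395 to 2.12 CPM). IL2RA, the IL-2 receptor alpha chain, was another, from 2030 ± 119 to 2770 ± 70.8 CPM (log2 fold change 0.45, edgeR adjusted p = 0.0317, n = 2 each). The counts of higher and lower genes were 1 and 0 in MyLa, 5 and 4 in SUP-T1, 1 and 4 in CCRF-CEM, 6 and 1 in MOLT4 and 0 and 2 in THP6 (0 and 0 without its second knockdown library).

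Partners of the receptors and enzymes moved by line. Of 11 partners of IL-10 and IL-35 signalling, 0 were called in H9 and in MyLa (1.82% and 1.88% of all genes), and 5 rose in Mac1, among them SOCS3 (log2 fold change 0.86, edgeR adjusted p = 1.32e-05), STAT3 (0.39) and IL10RB, the second receptor chain (0.39, adjusted p = 0.00907). IL10RB also rose in MOLT4, from 49.7 ± 1.48 to 79.1 ± 0.421 CPM (n = 2 each, edgeR adjusted p = 5.39e-06), and was lower in SUP-T1. Of the 11, 0 were higher and 3 lower in SUP-T1, 2 and 0 in CCRF-CEM, 2 and 1 in MOLT4, and 1 and 0 in THP6. Of the 4 genes of adenosine metabolism beside ENTPD1, ADA, which degrades adenosine, was higher in H9, Mac1, CCRF-CEM, MOLT4 and THP6, from 0.33 in THP6 to 0.94 in MOLT4 on the log2 scale (in THP6 without its second knockdown library 0.32, adjusted p = 0.151), and lower in SUP-T1 (log2 fold change -0.26, edgeR adjusted p = 0.00605). Of those 4 genes, 1 was higher and 0 lower in H9, in Mac1 and in CCRF-CEM, and 0 and 0 in MyLa. The counts were 0 and 2 in SUP-T1, 2 and 1 in MOLT4 and 2 and 0 in THP6. Of 8 partners of GARP and TGF-beta, ITGB8, the integrin chain that releases TGF-beta, fell in H9 from 9.69 ± 0.126 to 2.60 ± 0.428 CPM (n = 2 and 3; log2 fold change -1.90, edgeR adjusted p = 0.00129). LTBP1 was also lower there and NRROS higher. Of the 8, 1 was higher and 2 lower in H9, 2 and 0 in MyLa and 1 and 0 in Mac1. The T-ALL lines had 0 and 4 in SUP-T1, 1 and 1 in CCRF-CEM, 0 and 2 in MOLT4 and 1 and 0 in THP6. Of 9 partners of TNFR2 and GITR, 0 were called in H9 and in MyLa and 3 rose in Mac1, LTA, TNF and BIRC3. Low levels held there for LTA (0.187 CPM in controls, 1.71 in knockdown) and TNF (0.222 and 1.25 CPM). In SUP-T1 3 of these 9 were higher and 1 lower, in CCRF-CEM 2 and 0, in MOLT4 3 and 2, and in THP6 1 and 0. The THP6 counts of the lists in this paragraph rest on both knockdown libraries, which stood apart from each other. What remained without the second is given above for the 78 genes together.

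Markers of other cell types were counted in the same libraries. Summed B cell markers, of which 2 of 6 reached 1 CPM, were 190 to 213 CPM in H9 controls and 242 to 249 CPM in H9 knockdown libraries, and 6.59 to 9.78 and 28.4 to 39.5 CPM in Mac1, where MS4A1 and CD79B were at 0. Summed myeloid markers, of which 2 of 6 reached 1 CPM, were 40.0 to 41.4 CPM in MyLa controls and 46.7 to 54.4 CPM in MyLa knockdown libraries, with LYZ, FCGR3A and CD163 at 0. In H9 the myeloid sum did not exceed 0.580 CPM in either arm, and in Mac1 it was 38.0 to 42.2 CPM in controls and 58.1 to 62.1 CPM in knockdown libraries. Summed stromal, epithelial and endothelial markers in Mac1 were 18.1 to 22.0 and 53.2 to 53.6 CPM, with 2 of 4 called higher. The B cell sum was 27.4 to 29 and 17.4 to 19 CPM in CCRF-CEM. The T cell sum was 1890 to 1930 and 2930 to 3030 CPM in MOLT4, where 7 of 10 markers were called higher, and 3250 to 3450 and 2620 to 2840 CPM in SUP-T1. Sums of NK cell markers did not exceed 41.7 CPM (MOLT4 controls), and those of erythroid and platelet markers 1.75 CPM. The part of these genes in the member results was not tested.

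Over the 14 group means, the genes whose log2(CPM + 0.5) profiles were most like those of the members were named by their Pearson correlation, as a description, since the groups of a line share its identity and none of them is independent. For TNFRSF1B these were BLK (0.981), GSTK1 (0.978) and WIPF1 (0.976), and for IL10RA they were FLOT2 (0.990), BECN1 (0.984) and TPRA1 (0.980). IKZF2 was most like TBCEL (0.991), LAX1 (0.988) and PARVG (0.988). EBI3 was most like ZBTB32 (0.997), ANKRD35 (0.995) and HLX (0.994). GATA3 was among the nearest genes of no member, with correlations from -0.352 for IKZF2 to 0.615 for TNFRSF18.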

How the data were processed

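Expected counts per gene of 36 RNA-seq libraries were deposited as whole numbers. Per the submitters' processing notes, the authors used cutadapt 2.3, STAR 2.7.8a and RSEM 1.3.3 with GRCh38, and the sources used here do not give the annotation release or the strand setting. Per the labels' protocols, 50 ng of total RNA went into poly(A) selection and each library. Rows of 5 reporter sequences, all at 0 counts (0% of every library), were left out. Coordinates are those of GENCODE 29, which holds 96.5% of the 60623 identifiers. Library totals ran from 18624330 to 50626644 counts, and intervals and floors (3 counts per group) cover counting error only.

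The titles gave each library its line and arm. The cell line field numbers the SUP-T1 libraries onward from SUP-T1, and was not used. edgeR 4.0.16 (R 4.3.3) fitted 1 mean per group to all 36 libraries, with TMM scaling, filterByExpr (21138 genes) and quasi-likelihood F tests, adjusted by Benjamini-Hochberg at 0.05, and CPM uses the TMM-scaled totals. SE is the log2 fold change divided by the square root of F. Comparisons over lines used the sum of each arm's counts in a line (22965 genes, 18565 for controls). Alternatives used DESeq2 1.42.0 and limma 3.58.1 (voom), other scaling and filters, separate fits, the replicate number as a block, and libraries or lines left out. Tests were checked on simulated data. The likeness of profiles used log2(CPM + 0.5). The RefSeq windows were searched with Python 3.11.15.

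All members are named in every line, with GATA3. Of other lists at most 4 called genes per list and line are named, those with the lowest adjusted p, and so are genes lying over a member; a few such genes are not reported here. Members and lists were chosen with earlier results of these data known. Same-numbered libraries were checked as pairs: 17 correlations of deviations ran from -0.109 to 0.201 and 3 were over 0.1, so libraries were not paired.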

Additional observations from a re-analysis of the deposited data

Results flagged for a closer look

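For 7 of 9 tested members the responses to the hairpin differed between the 7 lines by a direct test, beside 35.2% of all genes. The test was edgeR's F over 6 degrees of freedom, adjusted over 21138 genes. Lines with counts near 0 entered it and could show no response. EBI3 had at most 1 count per arm in each T-ALL line, and IL10RA had 0 in CCRF-CEM and THP6. For IL10 the counts were 0 in MyLa, and for IKZF2 they were 0 in Mac1. IL10RA had F = 16.5, lower in H9 and MyLa and higher in the libraries that the labels call SUP-T1 knockdown. TNFRSF1B had F = 8.97, higher in H9, MyLa and THP6 and lower in MOLT4 and SUP-T1. IL10 had F = 5.37, with its call in SUP-T1. IKZF2 had F = 5.30, lower in CCRF-CEM and higher in MOLT4. EBI3 had F = 5.01, with its call in H9. IKZF4 had F = 4.09 and ENTPD1 F = 3.34, with no call in any single line. GATA3 moved in the opposite direction in SUP-T1, and without that line IKZF4, ENTPD1 and IL10 did not pass. Only the calls of IL10RA in H9 and MyLa, TNFRSF1B in MOLT4 and IL10 in SUP-T1 passed under every alternative that tested them. The other calls were lost under some. That of TNFRSF1B in THP6 rests on the second knockdown library (log2 fold change 0.09 without it).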

How the results depend on the processing

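No direction of a called response reversed under any alternative. Of the 12 called responses 4 passed under every alternative that tested them (IL10RA in H9 and MyLa, TNFRSF1B in MOLT4, IL10 in SUP-T1) and 8 were lost under some. IL10 was not among the genes tested in the separate fit of SUP-T1. Leaving out 1 library gave 0 to 3 called members in THP6, 1 to 3 in SUP-T1, 1 to 2 in H9 and in MOLT4, 1 in MyLa and 0 in CCRF-CEM and in Mac1, where the lone library left in some arms is assumed to vary like the other groups. The replicate block called 3 members in SUP-T1, 2 in H9 and in MOLT4, 1 in MyLa, 0 in THP6, CCRF-CEM and Mac1, and 6 between lines. It lost TNFRSF1B in H9 (adjusted p = 0.150), MyLa (0.0789) and THP6 (0.0706) and IKZF2 in CCRF-CEM (0.104). limma-voom called 4 members in MyLa, 1 in Mac1 and 0 in CCRF-CEM. DESeq2 called 1 in Mac1 and 4 in MOLT4. Separate fits of a line, which test fewer genes on fewer libraries, called 1 in SUP-T1 and 0 in THP6. Differences between lines passed for 4 members without SUP-T1, beside 4610 genes in place of 7448. Fits without THP6 knockdown 2, and without it and SUP-T1, were added after the data were seen. They leave a lone THP6 knockdown library, and their calls are not given. For CTCL against T-ALL controls DESeq2 called 3 members, limma-voom 0, the fit without H9 2 (EBI3 and IKZF2) and fits without any other line 0. The cause of these changes was not tested.

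Over all genes, calls moved by over 1.5 times from 384 in H9 to 220 with the block, 649 in limma-voom and 645 in DESeq2. In MyLa they moved from 397 to 243 with the block, 609 in DESeq2 and 1374 in a separate fit, and in THP6 from 1564 to 472 with the block, 0 in a separate fit, 74 without knockdown 2 and 7900 without knockdown 1. Separate fits called 2752 in Mac1 (1668) and 6797 in MOLT4 (4054). For CTCL against T-ALL controls 52 became 1957 in DESeq2, 100 in limma-voom, 338 without H9 and 12 to 30 without any other line. The count for the mean response went from 1 to 48 with no filter and 5 without SUP-T1, and that for the class difference from 1 to 91 with no filter and 9 in DESeq2. Leaving out 1 library gave 108 to 316 genes in H9, 196 to 249 in MyLa, 562 to 1033 in Mac1, 2260 to 2775 in MOLT4 and 1083 to 1547 in CCRF-CEM (1783). Depth allowed no response to be measured in the 21 combinations in which each arm held at most 3 counts. DESeq2 was not run for the differences between lines.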
